A study of Gossypium hirsutum with 2 samples.

Results

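Nuclear loci of upland cotton (Gossypium hirsutum) whose predicted protein resembles one encoded in the plastid or mitochondrial genome were examined in a promoter binding profile of GhD53, the cotton D53 repressor of strigolactone signalling. Members were chosen by the wording of the best protein hit that the authors deposited for each gene. The wording used no measured value, but each member had first to be listed by the authors as a promoter peak of these libraries. A locus was taken where the hit was marked as chloroplast or mitochondrion, or carried an accession of the RefSeq organelle type. The rule found 60 of 2183 promoter peaks, 2.75%, and these belonged to 39 of 2111 genes. The profile came from DAP-seq, an assay that exposes bare fragments of genomic DNA, here from cotton fiber, to an affinity-tagged protein expressed outside the cell and sequences the fragments that stay bound. It compared 1 affinity-purified library (GhD53 made in vitro, bound fragments) with 1 input library (the genomic fragments before purification). There was no replicate and no purification without the protein, so the values below describe this pair of libraries, and enrichment by GhD53 and by other steps of the purification cannot be told apart.

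Plant nuclear chromosomes hold many copies and fragments of plastid and mitochondrial DNA, which reach the nucleus over evolutionary time and are usually no longer functional there. Plastid genomes encode part of the photosystems, the NADH dehydrogenase-like complex, the ATP synthase, the plastid RNA polymerase and the plastid ribosome, and many of these genes lie in long co-transcribed groups. A nuclear copy of such a group can be annotated as a row of short nuclear genes, each with its own upstream window. Loci of this kind share sequence with the organelle genome and with each other. How reads that match several places were assigned is not given in the sources used here, so fragments of a nuclear copy and of organelle DNA cannot be told apart in any value below.

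Each peak has 3 values, all the authors' own: a pileup, which is the height of overlapping fragments of the purified library at the summit, a fold over the local background, and a q-value. The background was recovered from pileup and fold, and is given after the pileup below. All values come from the longer of 2 deposited peak lists unless the shorter is named. Positions follow the deposited files, and their genome build is not given in the sources used here. Distances run from the start of the gene to the centre of the peak, and any summit distance is named as one. The total depth of each library is unknown here, and these heights do not measure it.

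Peaks at the organelle-type loci were tall and stood on a tall background. Their pileup had a median of 136.5 fragments (quartiles 68.75 and 207.5), against 5 (quartiles 5 and 6) at the 2123 other peaks. A pileup above 20 was reached by 58 of the 60 peaks, beside 5.31% of all peaks in the list. The recovered background had a median of 38.4 fragments (quartiles 17.8 and 67.0) at organelle-type loci, against 0.608 at the other peaks. That lowest background of the list lay under 1 organelle-type peak, against 1844 of the other peaks (86.9%). The 60 peaks summed to 10091 fragments, 35.5% of the pileup of the whole list.

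Fold did not follow pileup across the organelle-type peaks. The median fold was 3.26 at organelle-type loci (quartiles 2.25 and 5.38, range 1.30 to 25.5), against 3.73 at the other peaks (quartiles 3.47 and 4.35). That 3.73 is the fold of a pileup of 5 over the lowest background, 0.608, which lay under 86.9% of the other peaks. On that shared background fold depends on pileup alone, so the 2 medians are not like measures of enrichment. The direction of their difference turned round with 1 peak per gene, the one of highest fold, where the medians were 4.35 at organelle-type loci and 3.73 at the others. The members were found at both ends of the fold scale. A fold under 2 was seen at 12 organelle-type peaks, against 5 of the 2123 others, and at 0.779% of all peaks. All 5 were among the 58 other peaks with a pileup above 20 (8.62%). On the lowest background the lowest listed pileup, 4, has a fold of 3.11. A fold under 2 was therefore not possible at 86.9% of the other peaks, and the same limit bears on the ranking of low folds. Of the 10 lowest folds in the list 8 belonged to organelle-type loci, as did 2 of the 10 highest. Of the 60 peaks, 50 had a q-value at or under 1e-05, beside 10.4% of all peaks and 53 of the 58 other peaks with a pileup above 20. Across the 60 peaks Spearman's rho was 0.72 between pileup and background, −0.57 between fold and background and 0.09 between fold and pileup. The points share their libraries, and many share sequence, so these are descriptions. Since the background was computed from pileup and fold, the rho values that involve it, and the negative one with fold in particular, are partly built in. No test was made of these differences, since there was 1 library per fraction.

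**Figure D1:**
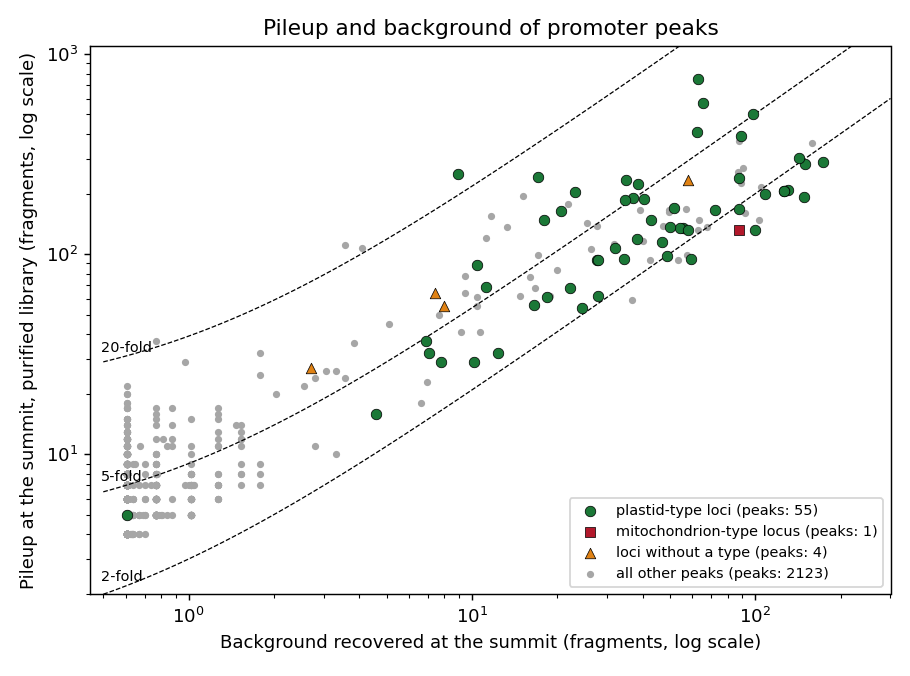
Pileup at the summit in the purified library against the recovered background, both in fragments on log axes, for every promoter peak; dashed lines mark equal fold. Nearly all organelle-type peaks lie in the upper right, at a median pileup of 136.5 over a background of 38.4, while the other peaks gather at the lower left, at a median pileup of 5 over 0.608.

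Some peaks outside the rule had similar values. There were 58 other peaks with a pileup above 20, a limit that fixes part of the likeness, and their median pileup was 99, background 16.9 and fold 4.17. The same medians were 136.5, 38.4 and 3.26 over all organelle-type peaks. Of the other peaks 20, at 15 genes, had a best hit filed under the bacterium Staphylococcus aureus, and these hits carry names of genes also found in plastid genomes, such as ribosomal protein S3, Ycf2 and the RNA polymerase alpha subunit. These 20 peaks had a median pileup of 140.5, a background of 35.4 and a fold of 3.96, and 19 of them had a q-value at or under 1e-05. They lie just outside the wording of the rule and are not counted as members. Just inside it were 7 peaks at 4 loci whose hit is also filed under that bacterium but is marked as chloroplast, all described as ribosomal protein L14.

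Plastid-type loci made up nearly the whole set, with 55 peaks at 34 loci. Their median pileup was 149, background 38.4 and fold 3.20. A type could not be read from the wording at 4 further loci, although their names, the RNA polymerase beta'' subunit, the ATP synthase CF1 alpha subunit, a subunit of the NADH-plastoquinone oxidoreductase and the photosystem II 47 kD protein, are those of plastid gene products. These 4 peaks had folds from 4.01 to 7.75 and pileups from 27 to 235. The mitochondrion-type set held 1 locus. GH_scaffold28097_objG0001, described as mitochondrial ribosomal protein S12, had a pileup of 133 over a background of 87.9, a fold of 1.51, on an unplaced scaffold (397 to 533) and 498 bp upstream of the gene's start. With 1 locus no comparison of the plastid and mitochondrial types is possible beyond setting this value beside the plastid-type range of 1.30 to 25.5.

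Ribosomal protein loci were the largest group, with 21 peaks at 12 plastid-type loci, and they held both the highest and nearly the lowest folds. Their median fold was 3.04 and their median pileup 189. Loci resembling rpl14, which encodes a protein of the large ribosomal subunit, showed the widest range. GH_A05G3311 had a pileup of 252 over a background of 8.92, a fold of 25.5 and the highest in the list, on chromosome A05 (65842775 to 65843079), 1326 bp upstream. GH_A12G0231 had 3 peaks. The one 674 bp upstream (A12, 3273054 to 3273535) had a pileup of 748 over 62.9, the tallest of the list, and a fold of 11.7. The other two had pileups of 132 and 119 and folds of 1.32 and 3.05, lying 33 bp upstream and 725 bp downstream of the start. Within this gene the highest fold was thus 8.84 times the lowest. GH_A13G1010 had a pileup of 164 over 20.6 at 835 bp upstream, a fold of 7.62, and a small peak of 16 over 4.59, a fold of 3.04, at the start of the gene. GH_D01G1170 had a pileup of 189 over 40.5, a fold of 4.58 at 589 bp downstream of its start, beyond the end of its 369 bp gene model.

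Loci resembling rps3, a protein of the small ribosomal subunit, had tall peaks in each of 3 places. GH_A12G0230 reached a pileup of 569 over 65.2, a fold of 8.61 (A12, 3272368 to 3272902), and had a second, lower peak of 98 over 48.9, a fold of 1.98. GH_D01G1171 had 205 over 23.1, a fold of 8.56 (D01, 18104253 to 18104990). GH_A06G2005 had the third tallest pileup in the list, 504 over 98.3, but with that background its fold was 5.08 (A06, 121904814 to 121905960). The A12 and D01 peaks thus had nearly the same fold while their pileups differed.

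Loci resembling rpl2, another protein of the large subunit, had low folds throughout. The 6 peaks at 3 loci had pileups from 95 to 302, backgrounds from 54.3 to 150.3 and folds from 1.59 to 2.48. GH_A06G2006 had 3 of them, with folds of 1.88, 2.12 and 1.59, GH_A12G0228 had 2, with 1.64 and 1.84, and GH_D01G1172 had 1, with 2.48. Each was below the median fold of the other peaks with a pileup above 20, which was 4.17 over a median background of 16.9. Each was also below the 3.73 of all other peaks, most of which lay on the lowest background. GH_A05G0869, resembling rps2 of the small subunit, had 169 over 87.9 near its start, a fold of 1.91. Farther upstream, at 1100 and 1610 bp, it had 29 over 10.2 and 88 over 10.4, with folds of 2.68 and 7.79.

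Photosystem loci had moderate folds, with 8 peaks at 6 loci and a median fold of 3.65. The 4 loci resembling psbB, which encodes the CP47 antenna protein of photosystem II, had folds within a narrow range, 3.20 to 4.35, although their pileups ran from 32 to 389. GH_A09G1190 had 389 over 88.7 and 94 over 27.8, folds of 4.35 and 3.29. GH_A12G2486 had 235 over 57.8, a fold of 4.01, GH_D02G1275 had 32 over 7.04, a fold of 4.10, and GH_D01G1168 had 61 over 18.4, a fold of 3.20. GH_D03G0877, resembling psaA of the photosystem I reaction centre, had the highest fold of the group, 6.45, with 408 over 62.4 at 1106 bp upstream. Its second peak, 164 bp upstream, had 133 over 57.8, a fold of 2.28 and the lowest of the group. GH_D08G1323, resembling psbC for the CP43 antenna protein, had 32 over 12.4, a fold of 2.46.

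NADH dehydrogenase loci had 16 peaks at 10 loci and a median fold of 2.97. In the plastid this complex takes part in electron flow around photosystem I. The highest fold was 6.60 at GH_A02G1594, resembling ndhD, with 236 over 34.9 at 1032 bp upstream, while its peaks of 240 over 87.9 and 94 over 27.5 had folds of 2.71 and 3.33. The second ndhD-type locus, GH_A02G0731, had 149 over 42.9 and 171 over 51.5, folds of 3.42 and 3.28. GH_A02G1649 and GH_A02G1593, both resembling ndhF, had folds of 6.25 and 2.41. The ndhH-type locus GH_D11G3642 had 3 peaks between 2.16-fold and 3.42-fold.

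A further 5 loci of this group shared a description, a putative NADH:ubiquinone reductase marked as chloroplast, all with a gene model of 168 bp. GH_A04G0636 had a pileup of 5 over 0.608, a fold of 3.73, each equal to the median of the other peaks, and had the lowest pileup among the members. The other four had pileups from 56 to 290. GH_A04G0620 had a fold of 3.23, GH_D01G1166 2.18, GH_D12G0211 2.29 and 1.64 at its 2 peaks, and GH_D13G0759 1.66, the last over 174.0, the highest background of the list. That peak was also the longest of the list, at 1571 bp.

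RNA polymerase loci had 5 peaks at 4 loci, all on A chromosomes. The rpoB-type loci, named for the beta subunit, had folds of 7.90 and 2.98 at GH_A06G1563 and 5.26 at GH_A04G0750. The rpoC2-type locus GH_A01G1368 had 27 over 2.71, a fold of 7.54. The rpoC1-type locus GH_A11G1886 had 193 over 148.6, a fold of 1.30 and the lowest in the list. The atpA-type locus GH_A01G1753, for the alpha subunit of the ATP synthase, had 64 over 7.39, a fold of 7.75. The rbcL-type locus GH_A07G1719, for the large subunit of the carbon-fixing enzyme Rubisco, had 209 over 130.5, a fold of 1.60. Of the remaining 4 loci, GH_A02G0733, resembling the large open reading frame ycf1, had 4 peaks with pileups of 225, 191, 108 and 95 and folds of 5.73, 5.05, 3.30 and 2.71. The second ycf1-type locus, GH_A09G0644 on A09, had 69 over 11.2, also a fold of 5.73. GH_A04G0535, resembling ycf2, had a fold of 4.82, and GH_D06G0180, resembling the Clp protease gene clpP, 2.70.

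**Figure D2:**
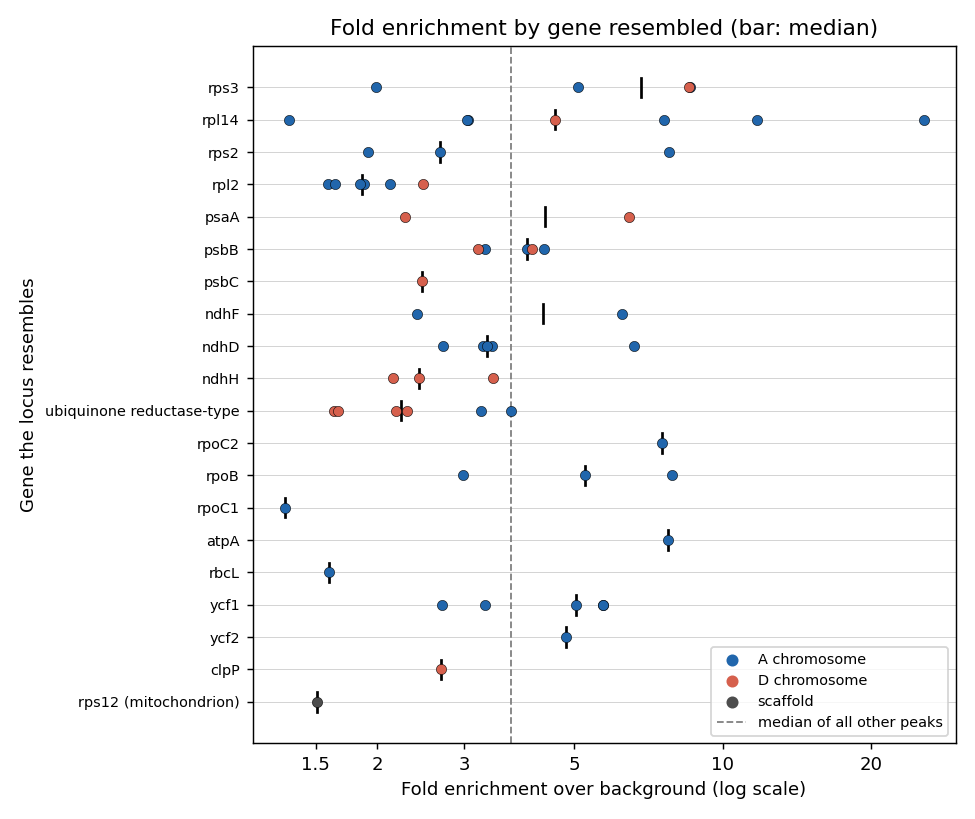
Fold enrichment of the peaks at the named loci on a log axis, by the gene the locus resembles, with groups in the order ribosomal protein, photosystem, NADH dehydrogenase, RNA polymerase, ATP synthase, Rubisco, others and mitochondrion; black bars are medians over peaks, colours give the A or D chromosome or scaffold, and the dashed line is the median of the other peaks (3.73). The rpl14-type peaks run from 1.32 to 25.5, the rpl2-type peaks stay between 1.59 and 2.48, and the psbB-type peaks between 3.20 and 4.35.

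Several loci carried more than 1 peak. This was so for 14 of the 39 organelle-type genes (35.9%), against 49 of the 2072 other genes (2.36%). It was so for 6 of the 51 genes of other peaks with a pileup above 20 (11.8%) and 4 of the 15 genes of those with a bacterial hit (26.7%). At 8 of the 14 organelle-type genes the highest fold was more than 2 times the lowest. Among these, GH_A05G0869 had all its peaks upstream of the gene's start, GH_A12G0230 had them downstream, and GH_A12G0231 had peaks on either side. Organelle-type peaks were longer, with a median of 270.5 bp against 174 bp, but the other peaks with a pileup above 20 had a median of 257.5 bp and those with a bacterial hit 317 bp. Of the 60, 12 lay downstream of the start of the gene they were assigned to, and 6 of these 12 were within the coding sequence of that gene. A place downstream of the start was also seen at 40 of the 2123 others. These included 5 of the 58 other peaks with a pileup above 20 and 4 of the 20 with a bacterial hit. The gene models were short, with a median span of 429 bp against 1671 bp. For genes of the other peaks with a pileup above 20 the median was 813 bp, and for those with a bacterial hit 657 bp.

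Some of the loci were grouped along chromosomes, while 23 of the 39 had no other member within 50 kb. Only members were joined, so these counts depend on the wording of the rule. Some of the 23 had a peak with a plastid-type name nearby, outside the wording. GH_A13G1010 (rpl14) lay near GH_A13G1011, with a bacterial hit to ribosomal protein S3, and GH_A11G1886 (rpoC1) near GH_A11G1884, with one to S2. Near the A12 group described below were GH_A12G0232 and GH_A12G0233, also with bacterial hits. No such count is given here for the other peaks. Joining peaks whose centres lay within 50 kb gave 29 groups, of which 6 held 2 or more loci, together 16 loci and 28 peaks. Of these 6 groups, 2 held 3 or more loci. The larger one, on D01, held 5 loci over 33.1 kb. In chromosome order they were GH_D01G1166, GH_D01G1168 (psbB), GH_D01G1170 (rpl14), GH_D01G1171 (rps3) and GH_D01G1172 (rpl2). The second, on A12, held 3 loci within 5.1 kb, GH_A12G0228 (rpl2), GH_A12G0230 (rps3) and GH_A12G0231 (rpl14), and its 7 peaks summed to a pileup of 2073. In both groups the loci that could be named followed the order of the plastid genes, or its reverse, in the RefSeq gene table of the assembly Gossypium_hirsutum_v2.1, where rps19 lies between rps3 and rpl2 and rpl16 between rpl14 and rps3. The ribosomal loci of a group also shared a strand. The other four groups held 2 loci each. Among them were ndhD with ycf1 and ndhF with ndhD, both on A02, and rps3 with rpl2 on A06, and 2 loci cannot show an order.

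The same gene order allowed peaks of separate copies to be set side by side. The rpl2-type loci on A06, A12 and D01 had gene models of equal span, 429 bp, and the distance from the start of rpl2 to that of rps3 was 1571 bp on A06, 1338 bp on A12 and 1572 bp on D01. The rps3-type model on A12 is longer, 621 bp against 426 bp on A06 and D01. From rpl2 to rpl14 it was 3833 bp on A12 and 3730 bp on D01. Measured from the start of rpl2, the strongest rps3-assigned summit lay 2431 bp along on A12 and 2473 bp on D01, 42 bp apart, with folds of 8.61 and 8.56. The summits upstream of rpl2 on A12 and D01 were 56 bp apart, with folds of 1.64 and 2.48. These were the 2 closest of 15 pairs of nearest summits. The tallest A12 summit, of GH_A12G0231 with 748 fragments and a fold of 11.7, lay 3099 bp along, and the nearest D01 summit was 626 bp away. The closest A06 summit was 209 bp from one on D01. The alignment was chosen after the values were seen. On A06 the rps3-assigned summit lay 847 bp along, between rpl2 and rps3, where neither of the other copies had a listed peak.

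**Figure D3:**
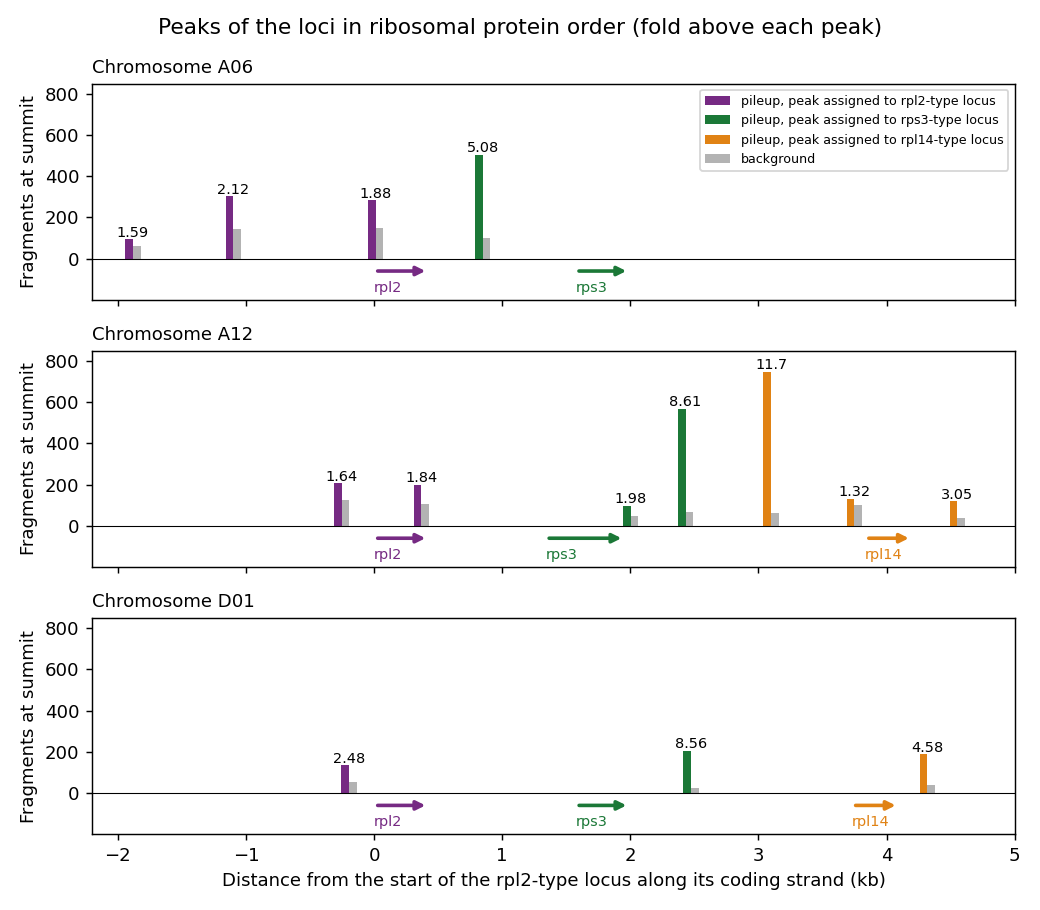
Pileup in the purified library (coloured bars) and recovered background (grey bars), in fragments, at each summit of the rpl2-, rps3- and rpl14-type loci on A06, A12 and D01, by distance in kb from the start of the rpl2-type locus; numbers above the bars are folds and arrows are gene models. The tall summits on A12 (8.61-fold) and D01 (8.56-fold) stand at about the same distance, the tallest A12 summit (11.7-fold) has none on D01 within 200 bp, and the rpl2-type summits are low in fold in all panels; peaks of 2 further D01 loci lie beyond the axis.

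Placement was uneven between the subgenomes that upland cotton carries, A and D. On A chromosomes lay 42 organelle-type peaks at 25 loci and on D chromosomes 17 peaks at 13 loci, with 1 peak on a scaffold. The A share was 71.2% of the peaks placed on either (Wilson 95% interval 58.6 to 81.2, which covers counting error only and treats peaks as separate), beside 49.4% of the other peaks. It was 56.9% among the other peaks with a pileup above 20 and 55.0% among those with a bacterial hit. Counted by gene, the A share of the organelle-type loci was 65.8%, with 25 on A and 13 on D. Genes of the other peaks with a pileup above 20 numbered 31 on A and 20 on D, and those with a bacterial hit 9 and 6. By gene the organelle-type loci were thus nearer to these sets than by peak. Peaks of a group are not independent. Counted by group, 20 lay on A and 8 on D. Members were found on 18 of 26 chromosomes, 10 of A and 8 of D. A02 had the most, with 11 peaks at 5 loci, followed by A12 with 8 peaks at 4 loci. The median fold was 3.31 on A and 2.48 on D, and the median pileups were 149 and 136. Of the 4 gene names carried by exactly 2 loci, ndhD, ndhF, rpoB and ycf1, each had both loci on A chromosomes. The 5 names carried by 3 or more loci, psbB, rpl14, rpl2, rps3 and the ubiquinone reductase type, each had loci on both A and D.

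**Figure D4:**
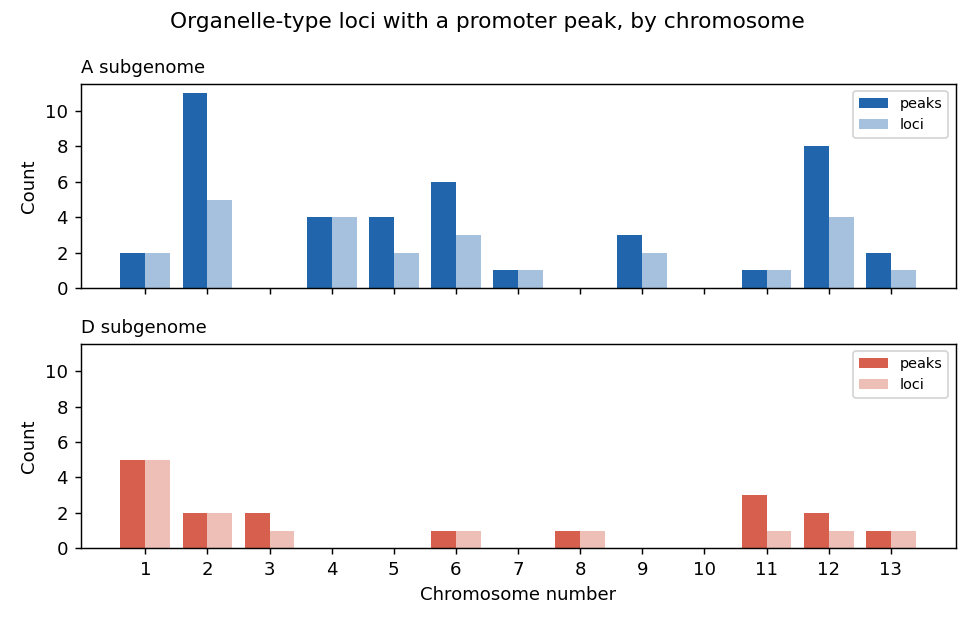
Number of organelle-type peaks (full colour) and loci (pale) on each of the 13 A and 13 D chromosomes. A02 leads with 11 peaks at 5 loci, and 8 of the 26 chromosomes have no bar.

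In the shorter list, which the authors made from the same 2 libraries, 46 of the 60 peaks (76.7%) overlapped a peak, beside 34.4% of all peaks. Among the other peaks with a pileup above 20 it was 47 of 58, and among those with a bacterial hit 15 of 20. The 14 peaks without a partner were not the low ones. Their pileups had a median of 181 and ran from 29 to 290, but their folds had a median of 1.65 and reached 2.68. The lowest fold anywhere in the shorter list was 2.06. The mitochondrial rps12-type locus GH_scaffold28097_objG0001, the rbcL-type locus GH_A07G1719 and the rpoC1-type locus GH_A11G1886 were among those without a partner.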

How the data were processed

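DNA affinity purification sequencing of GhD53 on cotton fiber DNA gave 1 affinity-purified and 1 input library, grouped by the fraction in the labels. BWA, ChIPseeker and deepTools 2.5.4 appear in the submitters' processing notes. The peak caller, its thresholds and the genome build are not given there. The 2 deposited lists hold promoter peaks, by their names. Per the file headers, the authors gave for each peak a pileup signal and a fold (ratio) over background. They also deposited a q-value and a p-value as −log10.

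The background was recovered as (pileup + 1) / fold − 1; for 2181 peaks a Poisson tail on it differed from the −log10 p in the files by at most 0.000188. Gene names came from the authors' best hits. Peaks within 50 kb were joined. Presence in the shorter list needed 1 bp of overlap. With 1 library per fraction, counts, medians and ranges are given without tests. The limits of 20 for pileup and 2 for fold, and short gene names for the hits, were chosen after the values were seen. The loci are named apart from a result that is not reported here; the naming rule took extremes of fold and pileup, groups of 3 or more loci, names carried by 3 or more loci and the mitochondrial locus. Members and lists were chosen with earlier results of these data known. Alternatives were a q-value of 1e-05, wording in brackets, 1 peak per gene, the shorter list, own promoters, −log10 q, other joining distances, groups counted once and reciprocal overlap of 50%. The steps were tested on simulated data and run in Python 3.11.15 with pandas 2.3.3.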

Additional observations from a re-analysis of the deposited data

How the results depend on the processing

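A limit of 1.5 times was used for medians and counts, and the difference of medians was taken as the measure after values were seen. Of 59 alternative values for 12 results, 49 moved by less than 1.5 times or stayed within the interval of a share. The difference of median folds, organelle-type minus other peaks, was −0.48. It was 0.62 with 1 peak per gene (the highest fold, which favours genes with several peaks), and 15.7 with −log10 q in place of fold. It was −3.47 at a q-value of 1e-05 or lower, where other peaks had a median fold of 6.84, −0.75 with wording in brackets alone and −1.24 in the shorter list. The direction of the fold difference therefore depends on whether every peak or 1 peak per gene is counted, and the cause was not tested. The 15.7 is a difference in another measure, which also rises with pileup, so it does not turn the fold difference round. With 1 peak per gene there were by construction 39 members, 34 of plastid type. No mitochondrion-type peak remained (0) at a q-value of 1e-05 or lower or in the shorter list. Without the 2 groups of 3 or more loci, chosen after seeing the data, the median pileup was 136 and the median fold 3.30. The A share ran from 65.8% to 72.0%, and 6 groups of 2 or more loci were found at 10, 50 and 200 kb. No paired analysis was possible because each fraction had 1 library. Depth per library is unknown here, and the lowest pileup listed was 4 fragments, so a locus without a listed peak is not shown to lack enrichment.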

Other observations

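Loci resembling rps3 just outside the wording, whose best hit is filed under a bacterium, had peaks at nearly the same place as the A12 member; they were chosen after their values were seen. Measured from the start of the gene to the centre of the peak, the strongest peak lay 1161 bp downstream at GH_A12G0230, 1144 bp at GH_A13G1011 and 1160 bp at GH_D02G1279. Pileups there were 569, 137 and 196, backgrounds 65.2, 13.3 and 15.2, and folds 8.61, 9.68 and 12.2. The gene models spanned 621, 642 and 657 bp, so each of these peaks lay beyond the end of its gene. At the 426 bp models of GH_D01G1171 and GH_A06G2005 the peaks lay 663 bp downstream and 251 bp upstream of the start, and the remaining rps3-type locus outside the wording, GH_A09G1191, had its peak 848 bp upstream at 7.55-fold. These distances depend on where each gene model starts. Measured from the start of rpl2, the models of GH_A12G0230 and GH_D01G1171 start 1338 and 1572 bp along, and their strongest summits were 42 bp apart.

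Within 50 kb of a member there were 23 other peaks. Of these 19 had a pileup above 20, and 14, at 10 genes, had a best hit filed under Staphylococcus aureus. The rps3-type locus GH_D02G1279 also had a peak of 161 over a background of 91.7, 1288 bp upstream, with a fold of 1.75.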
